A study of Mus with 9 samples.

Results

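The 9 genes Cs, Idh3a, Idh3b, Idh3g, Ogdh, Sdha, Sdhb, Fh1 and Mdh2, which encode enzymes of the tricarboxylic acid (TCA) cycle or their subunits, were chosen by symbol and compared between the hippocampal averages of 3 groups of mice. Each symbol was found on 1 probe set of the Clariom S Mouse array, so the genes account for 9 of 22206 probe sets. A probe set is a group of probes read as 1 gene-level value. The SAMR1 group is the senescence-resistant control strain and received vehicle. The SAMP8 group is the senescence-prone strain and received vehicle as well, and the TG-treated SAMP8 group was given trigonelline (TG), a plant alkaloid, by mouth at 5 mg/kg per day. Administration lasted 30 days and was followed by 8 days of water maze testing, through which TG was continued. By the methods the SAMP8 mice were males 16 weeks old at the start of the study, so older when the hippocampus was taken. The age of the SAMR1 mice is not given separately in the sources used here. The vehicle is called saline in the sample records and water in the methods. Each group had 3 arrays by the sample records, although the design text speaks of duplicate RNA, and a free-text description in the records speaks of a macrophage line, which goes against the tissue, strain and treatment fields and was not used. SAMR1 and SAMP8 are separate inbred strains, so a difference between them covers every locus at which the strains differ.

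The TCA cycle runs in the mitochondrial matrix. It oxidizes the acetyl group of acetyl-CoA, made from pyruvate by the pyruvate dehydrogenase (PDH) complex, and passes the electrons as NADH and reduced flavin to the respiratory chain. In brain its intermediates also supply the carbon of glutamate and GABA. The entry step, the condensation of acetyl-CoA with oxaloacetate, is catalyzed by citrate synthase (Cs), and the NAD-dependent isocitrate dehydrogenase (IDH3) is built from the catalytic subunit Idh3a with Idh3b and Idh3g. Ogdh is the first component of the alpha-ketoglutarate dehydrogenase complex. Sdha and Sdhb are the catalytic subunits of succinate dehydrogenase (SDH), which is also complex II of the respiratory chain. Fumarase (Fh1) and mitochondrial malate dehydrogenase (Mdh2) catalyze the last steps, which restore oxaloacetate.

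Values are the authors' group averages on the log2 scale, on which a step of 1 is a doubling of signal. The tables used here hold 1 average per group and no value per mouse, so a difference between groups has no error, no test was run, and no difference below is shown to be larger than the spread between mice. The authors' own fold changes and p-values were not used. The size of each difference was set beside that of all probe sets, and a limit of 1.1-fold (0.1375 on the log2 scale), the fold criterion of the study, was used for counting. In bulk tissue, fewer cells of a type and less RNA per cell cannot be told apart. The averages of all probe sets lay between 2.39 and 19.93, and their median was 6.09 for SAMR1, 6.04 for SAMP8 and 6.07 for the TG-treated group. Both tables gave identical SAMP8 averages.

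Between SAMP8 and SAMR1, Sdha, Sdhb and Idh3b had higher averages in SAMP8, while the other IDH3 subunits stood slightly lower and the remaining enzymes lay close together. Between TG-treated and nontreated SAMP8, the largest differences of the 9 genes lay within IDH3, where Idh3b was lower and Idh3g higher with TG, and Mdh2 was higher to a lesser extent. Sdha and Sdhb differed little between the SAMP8 groups. The 3 averages of a gene spanned from 0.06 (Ogdh) to 0.60 (Sdhb) on the log2 scale.

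Cs, on chromosome 10 from 128337727 to 128362482 (positions are those of RefSeq on GRCm38.p6), had averages of 13.25 in SAMR1, 13.19 in SAMP8 and 13.30 with TG. The differences were -0.06 for SAMP8 against SAMR1 and 0.11 for TG-treated against nontreated SAMP8, both within 1.1-fold. The gene of the entry step therefore had nearly level averages across the groups.

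The IDH3 subunits, which form 1 enzyme, did not share a direction. Idh3a (chromosome 9 from 54586511 to 54604662) stood at 14.09 in SAMR1, 13.95 in SAMP8 and 13.97 with TG, a difference of -0.14 between the strains and 0.02 with TG. The averages are deposited to 0.01, so the strain difference of Idh3a cannot be told from the limit. Idh3b (chromosome 2 from 130279309 to 130284451) averaged 12.21 in SAMR1, 12.61 in SAMP8 and 12.25 with TG. Its SAMP8 average was thus 1.32-fold above that of SAMR1, a log2 difference of 0.40, and 1.28-fold above that of the TG-treated group. For Idh3g (chromosome X from 73778963 to 73786897) the order was turned, with 12.76 in SAMR1, 12.61 in SAMP8 and 12.93 with TG. Its difference with TG was 0.32 (1.25-fold), and between the strains it was -0.15. Among the differences of all probe sets with TG, that of Idh3b lay at percentile 12.1 and that of Idh3g at percentile 84.5. The mean over the 3 subunits was 0.0367 between the strains and -0.0067 with TG. Both comparisons use the same SAMP8 average, so a high or low SAMP8 value alone gives a gene opposite signs in them, as for Idh3b and Idh3g.

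Ogdh, on chromosome 11 from 6291597 to 6359094, had the narrowest span, with averages of 13.26 in SAMR1, 13.25 in SAMP8 and 13.20 with TG. Its differences of -0.01 between the strains and -0.05 with TG lay at percentiles 48.2 and 41.6 of all probe sets. The 3 groups could hardly be distinguished on this gene even by their averages.

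**Figure D1:**
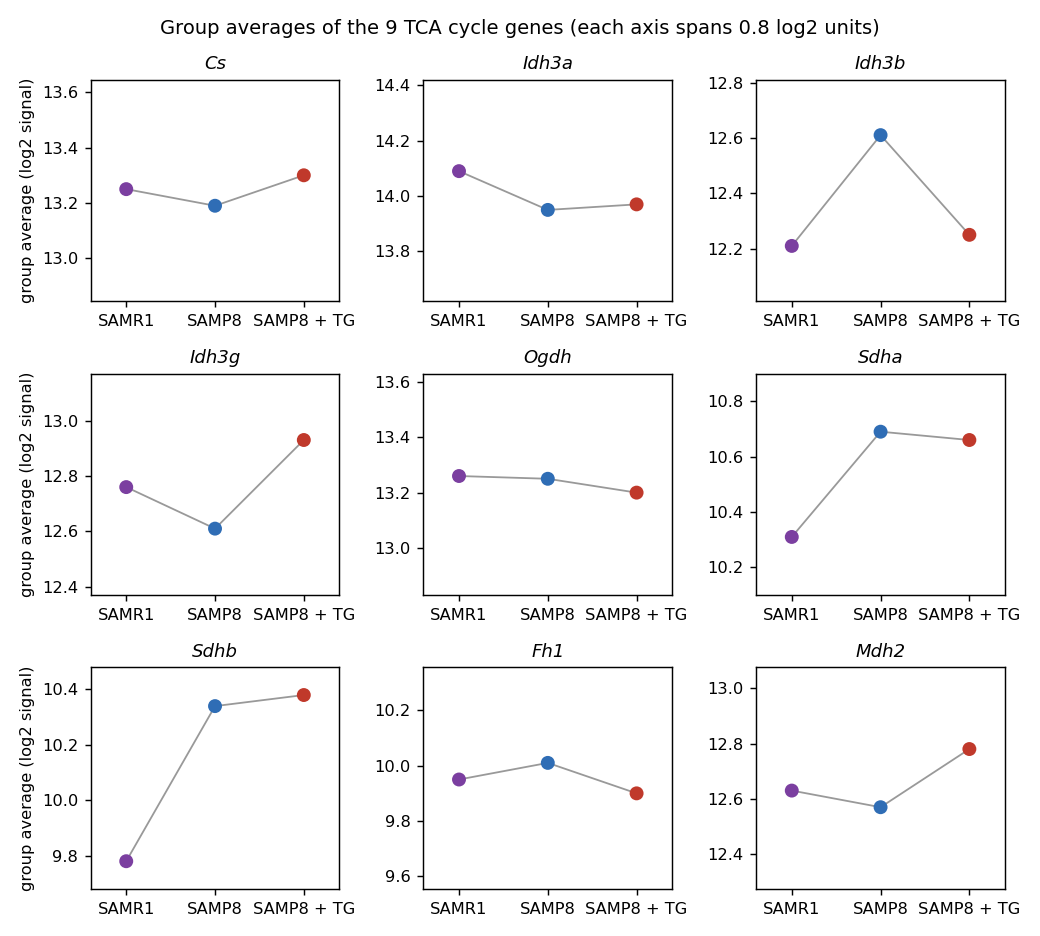
Group averages (log2 signal, vertical axes) of the 9 TCA cycle genes in SAMR1, SAMP8 and TG-treated SAMP8, 1 point per group, with the same span on every axis and no error because the tables hold averages only. Sdha and Sdhb step up from SAMR1 to both SAMP8 groups, Idh3b is highest in SAMP8 at 12.61, and Idh3g is lowest there.

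Sdha, the flavoprotein that oxidizes succinate (chromosome 13 from 74322255 to 74350240), averaged 10.31 in SAMR1, 10.69 in SAMP8 and 10.66 with TG. Sdhb, its iron-sulfur partner (chromosome 4 from 140961271 to 140979198), averaged 9.78, 10.34 and 10.38 in the same order of groups. Both SAMP8 groups therefore lay above SAMR1 and beside each other. The strain difference was 0.38 (1.30-fold) for Sdha and 0.56 (1.47-fold) for Sdhb, at percentiles 87.2 and 94.4 of all probe sets. With TG the differences were -0.03 and 0.04. Against SAMR1, the TG-treated group stood 0.35 higher for Sdha and 0.60 higher for Sdhb (1.52-fold), the only one of the 9 genes past 1.5-fold in any of the 3 comparisons.

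The membrane anchors of the same complex, Sdhc and Sdhd, which carry its electrons to ubiquinone, are outside the 9 genes. Sdhc averaged 8.82 in SAMR1, 9.0 in SAMP8 and 9.24 with TG. Sdhd averaged 8.59, 9.01 and 9.35 in that order. All 4 subunits of succinate dehydrogenase were thus higher in SAMP8 than in SAMR1 by over 1.1-fold, with a median log2 difference of 0.40, where 33.0% of all probe sets and 47.7% of those with signal like that of the 9 genes were higher by this limit. With TG the anchors differed by 0.24 and 0.34 where the catalytic subunits were nearly level. Of the 4 SDH assembly factors, which help insert the cofactors or stabilize free subunits, 3 were higher in SAMP8 and 1, Sdhaf4, was lower by a difference of -0.23. Sdhaf4 had low signal, with averages of 4.05 in SAMR1, 3.82 in SAMP8 and 3.93 with TG. Sdhaf1, with 5.05, 5.22 and 5.35, also lay below the median of all probe sets. With TG these 4 differed from SAMP8 by 0.01 (Sdhaf2) to 0.13 (Sdhaf1), all within 1.1-fold.

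Fh1, on chromosome 1 from 175601378 to 175625635, averaged 9.95 in SAMR1, 10.01 in SAMP8 and 9.90 with TG. Both of its differences, 0.06 and -0.11, lay within 1.1-fold. Mdh2, on chromosome 5 from 135778649 to 135790386, averaged 12.63, 12.57 and 12.78, which gave -0.06 between the strains and 0.21 (1.16-fold) with TG. Of these last enzymes of the cycle, Mdh2 alone passed the limit. It did so with TG and, at 0.15, in TG-treated SAMP8 against SAMR1, but not between the strains.

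**Figure D2:**
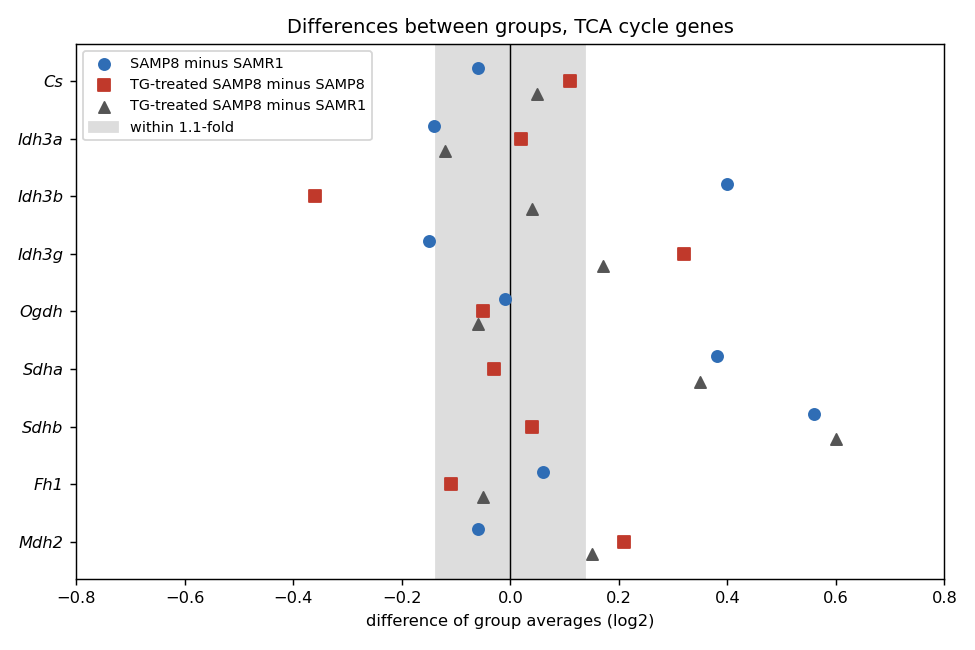
Differences of group averages (log2, horizontal axis) for each of the 9 TCA cycle genes in SAMP8 against SAMR1 (circles), TG-treated against nontreated SAMP8 (squares) and TG-treated SAMP8 against SAMR1 (triangles), with the grey band marking differences within 1.1-fold. The squares of Idh3b (-0.36) and Idh3g (0.32) lie on opposite sides, and the circles and triangles of Sdha and Sdhb lie together to the right.

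Counted over the 9 genes, 3 were higher in SAMP8 than in SAMR1 by over 1.1-fold (Sdhb, Idh3b and Sdha) and 2 were lower (Idh3g and Idh3a). Over all 22206 probe sets, 33.0% were higher and 32.5% were lower by this limit, so the share among the 9 genes is near the background. The median difference of the 9 genes was -0.01, against 0.00 over all probe sets. With TG, 2 of the 9 were higher (Idh3g and Mdh2) and 1 was lower (Idh3b), against 32.4% and 31.0% of all probe sets, and the median was 0.02 against 0.01. The TG-treated group stood above SAMR1 by over 1.1-fold for 4 of the 9 (Sdhb, Sdha, Idh3g and Mdh2) and below it for 0, where 31.6% of all probe sets were higher and 33.3% lower. The median of that difference was 0.05 against -0.01. The last comparison is the sum of the other 2 and adds no independent measurement. With TG the number of the 9 genes past the limit in either direction was 3, and between the strains it was 5.

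The 9 genes were all among the brightest 25% of probe sets, where the differences did not center on 0. In the signal classes that hold the 9 genes (4441 probe sets), the median difference was 0.12 between SAMP8 and SAMR1, with 47.7% of probe sets higher and 16.7% lower by over 1.1-fold. With TG the median there was -0.06, with 25% higher and 41.1% lower. For TG-treated SAMP8 against SAMR1 it was 0.04, with 38.8% higher and 29.2% lower, so the 0.05 of the 9 genes lay near it. Beside probe sets of like signal, the 9 genes thus had a lower median between the strains and a higher one with TG, without a test of either. When the median of its own signal class was subtracted from each gene, 3 were higher and 4 lower between the strains, and 3 higher and 1 lower with TG.

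**Figure D3:**
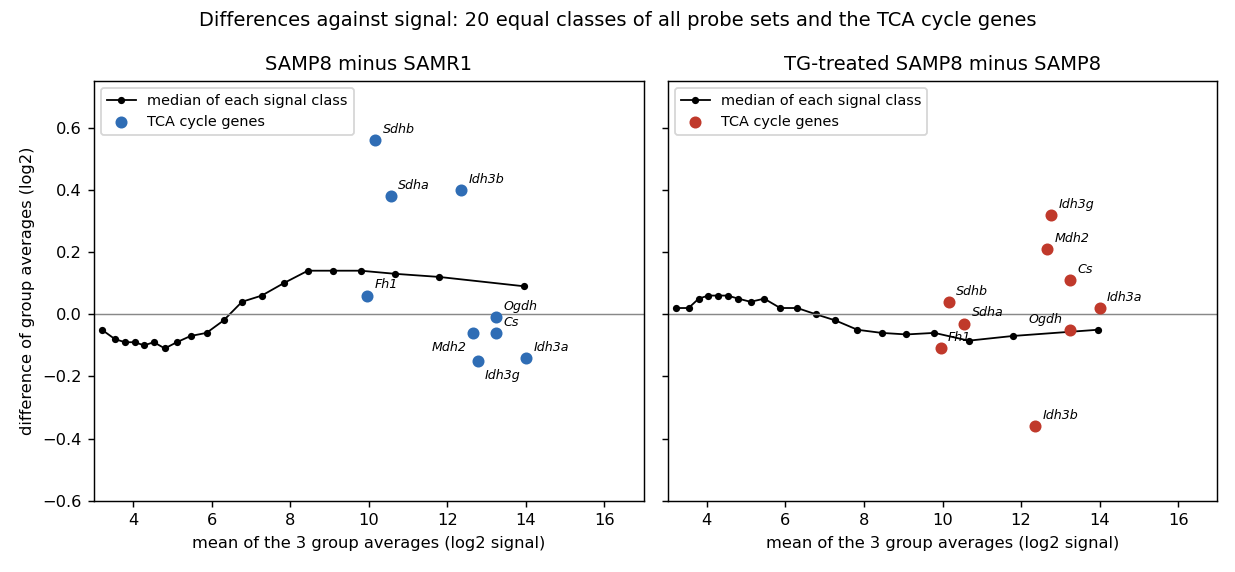
Difference of group averages (log2, vertical axes) against the mean of the 3 averages (log2 signal) for the 9 TCA cycle genes (colored points) and the median of each of 20 equal classes of all probe sets (black line), in SAMP8 against SAMR1 (left) and TG-treated against nontreated SAMP8 (right). The class medians reach 0.14 on the left and -0.085 on the right at the signals where the genes lie, on the left Sdhb, Sdha and Idh3b stand above the line and the other genes below it, and on the right Idh3b is farthest below it and Idh3g farthest above.

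The cycle has 8 further subunits on the array, taken from a list of the remaining enzymes. Of these, 5 were higher and 1 was lower in SAMP8 than in SAMR1 by over 1.1-fold, against 33.0% and 32.5% of all probe sets. Their median was 0.18. With TG, 4 were higher and 2 lower, against 32.4% and 31.0% of all probe sets, with a median of 0.165. The largest values belonged to Suclg1, the subunit common to both succinyl-CoA synthetases, which averaged 11.22 in SAMR1, 11.85 in SAMP8 and 12.35 with TG, a difference of 0.63 between the strains and 0.50 with TG. Its partners, which set the nucleotide used, were Suclg2 with 7.07, 7.25 and 7.49 and Sucla2 with 5.93, 5.92 and 6.01. Dlst, the second component of the alpha-ketoglutarate dehydrogenase complex, averaged 7.11, 6.67 and 6.72, lower in both SAMP8 groups while its partner Ogdh was level. Dld, which serves that complex and the PDH complex, averaged 13.70 in SAMR1, 13.70 in SAMP8 and 13.44 with TG. Over all 17 TCA cycle genes, the 9 and these 8, 8 were higher and 3 lower between the strains, and 6 were higher and 3 lower with TG.

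Upstream of the cycle, 4 of 6 genes of the PDH complex and of the carrier that brings pyruvate into mitochondria were higher and 1 was lower in SAMP8 than in SAMR1, with a median of 0.575. Of all probe sets, 33.0% were higher and 32.5% lower between the strains. With TG, 2 of the 6 were higher and 4 lower, against 32.4% and 31.0% of all probe sets. The carrier subunits and the enzyme separated here. Mpc1, a subunit of the carrier, averaged 13.61 in SAMR1, 13.68 in SAMP8 and 14.58 with TG, a difference of 0.90 with TG at percentile 99.2 of all probe sets. Pdha1, the catalytic subunit of PDH, averaged 8.97, 9.43 and 9.09. Among the 6 kinases and phosphatases that switch PDH off and on, 1 was higher with TG (the phosphatase Pdp2, 0.46) and 1 lower (the kinase Pdk1, -0.39).

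The isoenzymes that carry out the same reactions with another cofactor, in another compartment or in another tissue did not follow the 9 genes one for one. Mitochondrial NADP-dependent Idh2 averaged 7.68 in SAMR1, 7.61 in SAMP8 and 8.17 with TG, a difference of 0.56 with TG. Ogdhl, a relative of Ogdh, had a difference of -0.36 with TG where Ogdh had -0.05. Mdh1, the cytosolic malate dehydrogenase, averaged 15.09, 15.09 and 15.43, so both malate dehydrogenases were higher with TG, by 0.34 and 0.21. Of the 6 genes in this list, 2 were higher and 2 lower with TG, near the 32.4% and 31.0% of all probe sets.

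Of 10 genes that feed carbon into the cycle or draw it off, 7 were lower and 1 was higher with TG by over 1.1-fold. Their median was -0.29. Of all probe sets, 31.0% were lower and 32.4% higher by this limit. In the signal classes of the 9 genes, 41.1% were lower and 25% higher with TG, with a median of -0.06. Pc and Glud1, also on the list, had no probe set of their own and are not among the 10. The extremes were Me3, a mitochondrial malic enzyme, with averages of 10.25 in SAMR1, 10.55 in SAMP8 and 9.94 with TG, and Acly, which splits citrate in the cytosol, with 10.76, 11.15 and 11.43. In SAMP8 against SAMR1, 5 of the 10 were higher and 0 lower, against 33.0% and 32.5% of all probe sets. Their median was 0.12, against 0.00 over all probe sets. The signal classes of the 9 genes also had a median of 0.12, but Me2 and Pck2 were dimmer than those classes.

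Beside complex I and glycolysis, the 9 genes were nearer to 0 with TG. Other lists also lay near 0, with medians of -0.02 (PDH kinases and phosphatases), 0.045 (isoenzymes) and 0.075 (SDH assembly factors). The 8 further cycle subunits stood at 0.165. By over 1.1-fold, 32.4% of all probe sets were higher with TG and 31.0% were lower. Of 37 genes with Nduf symbols, nearly all subunits of complex I, 32 were higher and 1 was lower with TG, with a median of 0.42, from -0.33 (Ndufa4l2) to 1.24 (Ndufs7). Between the strains the median of these genes was 0.10. Of 15 glycolytic genes, 9 were higher and 3 lower with TG, with a median of 0.21, from -0.40 (Pfkp) to 0.76 (Ldha). The difference between these medians and the 0.02 of the 9 genes was not tested.

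**Figure D4:**
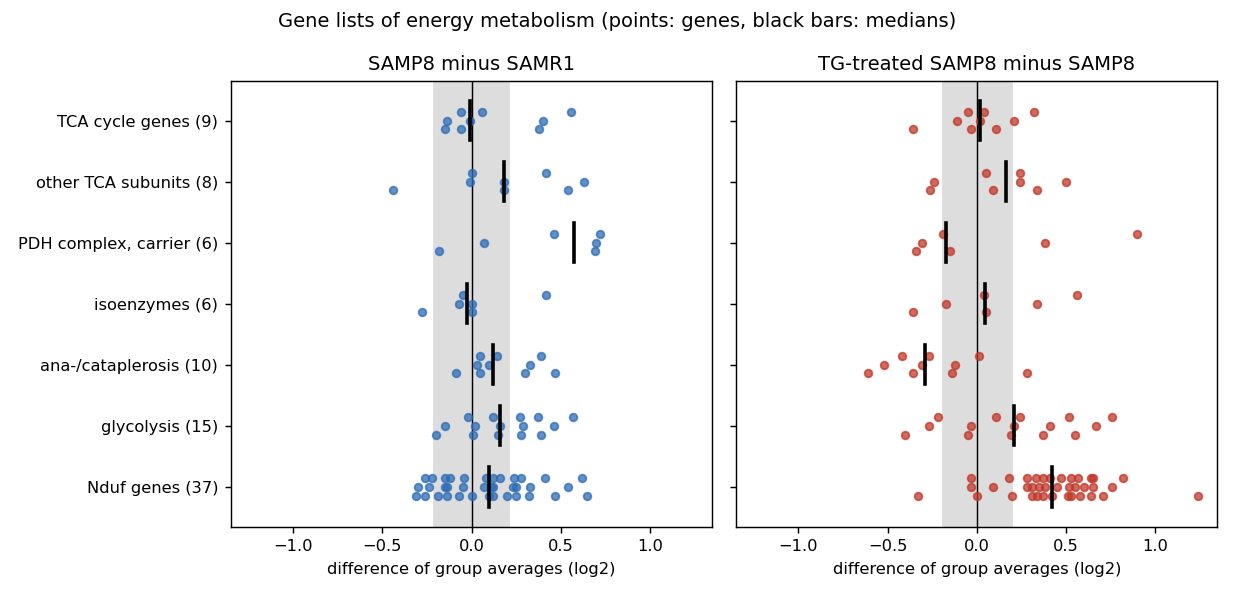
Differences of group averages (log2, horizontal axes) of single genes (points) in 7 lists of energy metabolism, with list medians as black bars and the middle 50% of all probe sets as a grey band, for SAMP8 against SAMR1 (left) and TG-treated against nontreated SAMP8 (right). With TG the TCA cycle genes center on 0.02 and the Nduf genes on 0.42, and the list of genes that feed or drain the cycle lies mostly to the left.

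Markers of cell types were read in the same averages and counted at 1.1-fold. By this limit 33.0% of all probe sets were higher and 32.5% lower between the strains. With TG, 32.4% of all probe sets were higher and 31.0% lower. Markers of hippocampal subfields had averages between 5.20 and 11.85 and markers of neurons between 10.40 and 19.70. The summed signal of the neuron list was nearly level, with log2 values of 20.414 in SAMR1, 20.494 in SAMP8 and 20.461 with TG. A sum of linear signal is set mostly by the brightest genes, here Syt1 at 19.70 in all 3 groups, so it can hide differences of dimmer markers. Of the 8 neuron genes, 3 were higher and 1 lower in SAMP8 than in SAMR1, and 3 were higher and 3 lower with TG. The astrocyte list had 18.464, 18.516 and 18.483, a sum set mostly by Slc1a2 at 18.36, 18.40 and 18.37. Of its 8 genes, 3 were higher and 0 lower in SAMP8 than in SAMR1, with Gfap highest at a difference of 0.95. With TG, 2 of them were higher and 1 was lower. Of the 7 subfield markers, 6 were higher in SAMP8 and 6 were lower with TG, and their summed signal was 12.266, 12.785 and 12.169 in the same order. For the endothelial list, 6 of 8 were higher in SAMP8 and 7 of 8 lower with TG (11.735, 12.237 and 11.618). The meningeal list had 3 of 8 higher and 3 lower between the strains and 2 higher and 5 lower with TG (11.242, 11.176 and 10.389). Of the 8 oligodendrocyte markers, 2 were higher and 5 lower in SAMP8, and 6 were higher and 1 lower with TG (18.891, 18.741 and 18.947). The smooth muscle and pericyte list had 4 of 8 higher and 3 lower between the strains and 1 higher and 6 lower with TG (9.822, 10.844 and 10.510). The microglial list had 3 of 8 higher and 3 lower between the strains and 3 higher and 4 lower with TG (13.068, 13.206 and 13.197). The choroid plexus list had 3 higher and 3 lower between the strains and 4 higher and 3 lower with TG (9.397, 9.959 and 10.457). The part of cell composition in the differences of the 9 genes was not tested.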

How the data were processed

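Hippocampal RNA of 9 samples, 3 per group, was hybridized to Clariom S Mouse arrays. The authors normalized the arrays by SST-RMA in the Transcriptome Analysis Console, and deposited 2 tables of group averages as log2 signal. The tables also hold the authors' fold changes and unadjusted and adjusted p-values, which were not used. Arrays have no read depth, and precision is limited by there being 3 arrays a group. Groups follow the sample titles.

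Members were the probe sets whose whole symbol equals one of the 9 names; 0 further probe sets list a member beside other genes. Differences of averages were taken and counted over all probe sets at 1.1-fold. Signal classes are 20 equal classes of the mean of the 3 averages. Of 139 genes listed by name, 135 had a probe set of their own, and Pc, Glud1, Eno1 and Zbtb20 did not. The 37 Nduf genes were taken by the form of their symbols and are not in that count. All genes of the further cycle subunits, and of each other list the genes with the highest and the lowest difference with TG, were to be named; further genes of those lists were chosen for naming with their values known, and 1 gene that the rule names is not reported here. The members and lists were chosen with earlier results of these data known. Counting was tested on simulated data. Alternatives were other centrings, a signal filter, the mean over members and limits of 1.2-fold and 1.5-fold. Python 3.11.15, numpy 2.4.6, pandas 2.3.3 and matplotlib 3.10.9 were used.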

Additional observations from a re-analysis of the deposited data

How the results depend on the processing

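Of 33 values recomputed under settings that could change them, 13 stayed within the limits set for them (0.01 for a median, 1.5 times for a count). Centring each group on the median of all probe sets gave medians of 0.04 between the strains, -0.01 with TG and 0.07 for TG-treated SAMP8 against SAMR1, with 0 genes lower between the strains and 2 lower with TG. Centring within classes of signal gave -0.10, 0.07 and 0.03, with 4 genes lower between the strains and 1 lower in TG-treated SAMP8 against SAMR1. The mean over the 9 genes was 0.1089 between the strains and 0.1256 for TG-treated SAMP8 against SAMR1. At 1.2-fold, 0 genes were lower between the strains, 1 was higher with TG and 2 were higher in TG-treated SAMP8 than in SAMR1. At 1.5-fold, 0 were higher or lower between the strains, 0 were higher or lower with TG, and 1 was higher in TG-treated SAMP8 than in SAMR1. The sign of the median between the strains and of that with TG is therefore not settled, while that of TG-treated SAMP8 against SAMR1 was positive under these settings. Probe sets of like signal also had a positive median in that comparison, 0.04. A signal filter and other rules for matching probe sets (27 further values) could not change a value, since each of the 9 genes has 1 unshared probe set of high signal, and they say nothing about stability. No paired analysis was possible because the tables used here hold 1 average per group, and for the same reason no replicate was left out.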
